A study of Mus musculus with 6 samples.

Results

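Transcripts of fatty acid oxidation and of the peroxisome were followed in whole kidneys of 2-month-old C57BL/6 mice. The group comprises 45 named genes, chosen by symbol from the 40993 genes of the deposited table. They are 21 mitochondrial enzymes and carriers, 15 peroxisomal enzymes, transporters and peroxins, 2 enzymes found in both organelles (Eci2 and Crat), 4 genes of fatty acid uptake and activation and 3 regulators. Each gene had 1 entry in the table. Kidneys came from mice on an adenine-enriched diet (3 samples, adenine 1 to 3) or on a standard diet (3 samples, standard 1 to 3), and no other treatment or allele is named in the labels. Excess adenine is oxidised to a poorly soluble product that crystallises in the tubules, and this diet is widely used to damage rodent kidneys. The sources used here do not give the dose or duration of the diet, and nothing in the labels states that each of the 6 samples is its own animal. The p-values therefore measure only the spread between these samples, which may be technical.

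Fatty acids are the main fuel of the proximal tubule, the stretch of the nephron that reabsorbs most of the filtered solutes and is dense in mitochondria and peroxisomes. Long-chain fatty acids are activated to acyl-CoA, passed into mitochondria by the carnitine shuttle and shortened in a repeating spiral of dehydrogenation, hydration, a further dehydrogenation and thiolysis, with electrons handed to the respiratory chain through the electron transfer flavoprotein. Peroxisomes shorten very long-chain and branched fatty acids and bile acid intermediates and pass the products on. The nuclear receptor PPAR-alpha (Ppara) and the coactivator PGC-1alpha (Ppargc1a) switch on many genes of both pathways.

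Levels are given in FPKM (fragments scaled by transcript length and by the number of mapped fragments), and a value after ± is the SD of 3 samples on a diet. Log2 changes are adenine minus standard on the log2(FPKM + 1) scale. Depth, estimated from the steps between the lowest FPKM values, was 17.5 to 23.5 M fragments in the adenine samples and 17.2 to 20.3 M in the standard samples. At the lowest of these depths 3 fragments on a transcript of 2 kb correspond to 0.0966 FPKM, and these limits cover counting error only. The sum of 16 proximal tubule markers was 1625, 2688 and 4022 FPKM in adenine 1 to 3 and 4766, 5739 and 6073 FPKM in standard 1 to 3, so the labelled tissue carried its defining transcripts in every sample. The male-expressed gene Ddx3y was above 20 FPKM in all 6 samples.

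Many of these genes were lower on the adenine-enriched diet and none passed the test upward. Of 44 members tested, 19 fell and none rose (limma, Benjamini-Hochberg adjusted p under 0.05 over 15431 genes). Over all genes tested 6.84% fell and 29.7% rose. The members were chosen with earlier results of these data known, so these shares describe the list and do not test it. At an unadjusted p under 0.05 the counts were 26 members lower and 0 higher. Of all 15431 genes tested, 1576 were lower and 6069 higher at that unadjusted threshold. In whole-kidney RNA, fewer cells of a type and less RNA per cell cannot be told apart. All 3 adenine samples lay below all 3 standard samples in 29 of the 44 members, against 11.8% of all genes tested, and above them in 1, Acaa1a, against 44.4%. The median log2 change was -0.43 over the members and 0.25 over all genes tested. The shift of all genes depends on how the libraries are scaled. With libraries scaled by median-of-ratios size factors, called size-factor scaling here, it is taken out. Then 30 members fell and none rose, against 15.2% and 16.8% of all genes, and the median of the members was -0.72. The 19 members that fell without this scaling all fell after it, and a further 11 were called. With quantile normalization the median log2 change over all genes tested was -0.079. There 15 members fell and none rose, against 2237 and 2140 of the 15431 genes tested. The median of the members was then -0.425, and 13 of the 19 calls were kept.

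The counts depended on single libraries. Without adenine 1, 2 and 3 the falls numbered 13, 2 and 29, where 4.24%, 1.5% and 10.3% of all genes fell. Without standard 1, 2 and 3 they numbered 8, 4 and 1, where 2.81%, 2.34% and 2.69% of all genes fell. With size-factor scaling the 30 falls became 19, 3 and 40 without adenine 1, 2 and 3, where 8.43%, 2.97% and 18.9% of all genes fell. They became 13, 10 and 5 without standard 1, 2 and 3, where 6.61%, 5.74% and 5.9% fell. With no filter on low values 11 members fell, against 3.65% of 22768 genes. Acadsb was the only one of the 19 that kept its call under each of the 6 omissions, without that scaling. The log2 change of each of the 19 stayed below 0 under every omission. It ranged from -2.09 to -1.14 for Acsm2, the largest fall, and from -0.336 to -0.24 for Pex13, the smallest. With the replicate number as a block 20 members fell, and with the block and size-factor scaling together 39 fell, against 7.34% and 16.8% of all genes.

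**Figure D1:**
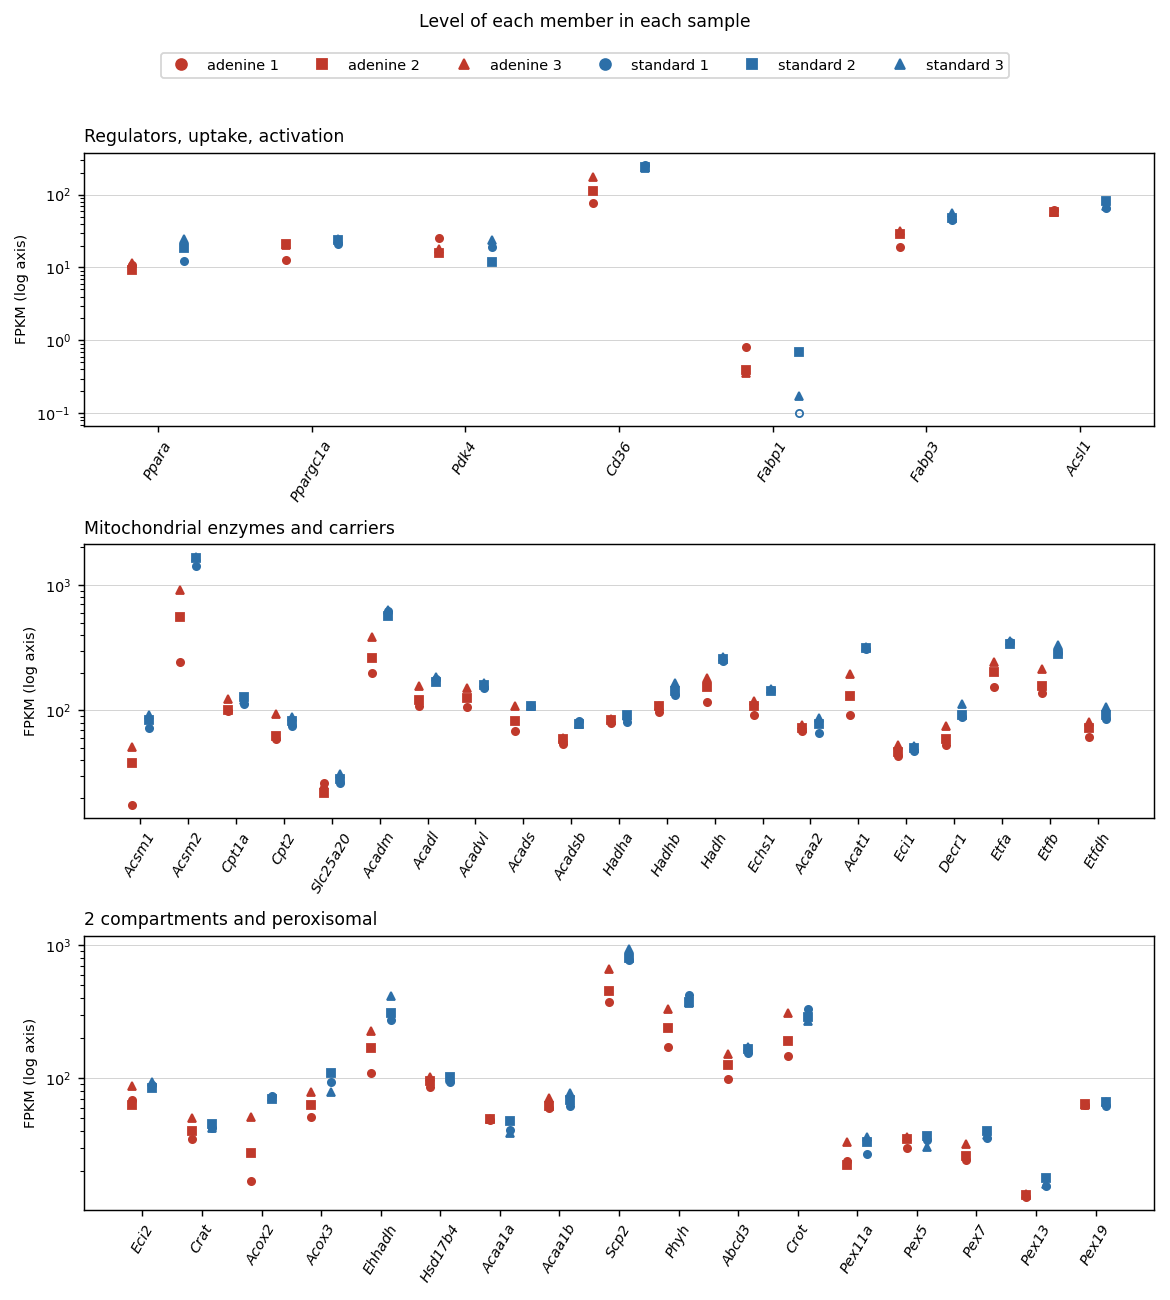
Level of each of the 45 members in each sample, in FPKM on a log axis, with adenine samples in red left of standard samples in blue; the open symbol marks Fabp1 in standard 1, listed at 0 and drawn at 0.1. Acsm2 had 244 to 913 FPKM in the adenine samples, all below its 1409 to 1680.0 FPKM in the standard samples.

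None of the 3 regulators passed the test. Ppara, the receptor itself, had 10.7, 9.20 and 11.4 FPKM in adenine 1 to 3, against 12.3, 18.6 and 24.7 FPKM in standard 1 to 3. The groups did not overlap, but standard 1 lay close to the adenine samples, and the log2 change of -0.73 (SE 0.24) missed the threshold (limma adjusted p = 0.0533). It passed with the replicate number as a block (limma adjusted p = 0.0451), after size-factor scaling (0.0305) and with quantile normalization (0.027). Ppargc1a was 17.9 ± 4.57 FPKM in adenine samples and 23.2 ± 1.78 FPKM in standard samples, with the lowest value, 12.6 FPKM, in adenine 1 (limma adjusted p = 0.151). Its groups did not overlap but came close, at 20.8 FPKM in adenine 2 and 21.2 FPKM in standard 1. It was not called after size-factor scaling (limma adjusted p = 0.062) and was called with the replicate block added to that scaling (0.0305). Pdk4 encodes a kinase that shuts off pyruvate dehydrogenase and is a classical PPAR-alpha target. Its samples overlapped fully, at 15.6 to 25.03 FPKM in adenine samples and 11.9 to 24.1 FPKM in standard samples (limma adjusted p = 0.786).

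Of the 3 tested genes of fatty acid uptake and activation, 2 fell. Cd36, a membrane receptor that takes up long-chain fatty acids and is also carried by endothelium, macrophages and adipocytes, had 77.8, 110.5 and 176 FPKM in adenine 1 to 3, against 254, 237 and 229 FPKM in standard 1 to 3. Every adenine sample lay below every standard sample, adenine 3 least so, and the mean was 50.6% of the standard mean (log2 change -1.06, SE 0.28, limma adjusted p = 0.029). Fabp3, a cytosolic fatty acid-binding protein, fell to 26.3 ± 6.27 FPKM in adenine samples, against 49.4 ± 5.11 FPKM in standard samples (limma adjusted p = 0.0144). Acsl1, which activates long-chain fatty acids to acyl-CoA, was 59.2 ± 2.48 FPKM in adenine samples and 71.8 ± 7.90 FPKM in standard samples, without overlap (limma adjusted p = 0.0752, and 0.0106 after size-factor scaling). Leaving out adenine 2 or any of the standard samples ended the call of Cd36 (limma adjusted p 0.0758 to 0.0877), as did quantile normalization (0.0585). With no filter its adjusted p was 0.05004. Leaving out standard 3 ended that of Fabp3 (0.0517). Markers of adipocytes, cells that carry Cd36, followed the sample number. Their sum over 5 genes was 19.0, 30.9 and 0.17 FPKM in adenine 1 to 3 and 11.7, 19.2 and 0.256 FPKM in standard 1 to 3, and none of the 4 tested passed in limma in either direction, also none at an unadjusted p under 0.05. The 6 endothelial markers summed to 208 to 223 FPKM in adenine samples and 184 to 230 FPKM in standard samples. The part of these cells in the fall of Cd36 was not tested.

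Fabp1, the liver fatty acid-binding protein and a strong PPAR-alpha target in liver, was the lowest of the members in these kidneys. It was listed at 0.807, 0.396 and 0.359 FPKM in adenine 1 to 3 and at 0, 0.689 and 0.174 FPKM in standard 1 to 3, and its mean lay below the 0.5 FPKM needed for testing. The groups overlapped. It is 1 of 2 members, with Acox2, whose promoter window holds a match to a loose direct repeat of the receptor half-site. The stretch before the gene's start in the table is shown for that reason (RefSeq, GRCm38.p6, chr6:71199629-71199826, plus strand, match in capitals).
Fabp1: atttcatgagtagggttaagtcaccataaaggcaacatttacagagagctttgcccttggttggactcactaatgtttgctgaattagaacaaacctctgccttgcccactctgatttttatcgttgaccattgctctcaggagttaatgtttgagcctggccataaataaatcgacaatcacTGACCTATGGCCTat
On the opposite strand the match reads AGGCCATAGGTCA, and it begins 67 bases before the RefSeq start site. The motif searched was NGGNCA followed after 1 base by AGGNCA, on both strands of 32851 windows of 300 bases, 250 before to 50 after a start site; 0.798% of all windows hold it. Windows were found for 39 members, 45 windows in all, and 3 of them, from Fabp1 and Acox2, hold it. The exact repeat, AGGTCA followed after 1 base by AGGTCA, was in none of the 45 and in 0.0396% of all windows. The Acox2 match, TGGACACAGGACA, lies in a region shared by both of its windows. A match is a description of letters and says nothing of binding.

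The largest falls among the members belonged to the medium-chain synthetases. Acsm2 and Acsm1, mitochondrial enzymes that activate medium-chain fatty acids, lie 6.33 kb apart on chromosome 7 (GRCm38). Acsm2 (chr7:119554469-119600694) had 244, 557 and 913 FPKM in adenine 1 to 3, against 1409, 1642 and 1680.0 FPKM in standard 1 to 3. Even adenine 3, the highest on that diet, was far below the lowest standard sample, and the mean was 36.2% of the standard mean (log2 change -1.65, SE 0.46, limma adjusted p = 0.0336). Acsm1 had 17.5, 38.3 and 50.7 FPKM in adenine 1 to 3, against 72.7, 83.7 and 91.8 FPKM in standard 1 to 3 (log2 change -1.31, SE 0.36, limma adjusted p = 0.0322). The spread within the adenine group was wide for both, since adenine 1 stood well below adenine 3. Both calls ended without adenine 2 or any of the standard samples (limma adjusted p 0.0699 to 0.0958), and with no filter on low values (0.0558 for Acsm1 and 0.0629 for Acsm2); that of Acsm2 also ended with quantile normalization (0.0755). The Acsm genes resemble one another, so reads may be shared between them and the split between the pair is uncertain.

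None of the 3 transcripts of the carnitine shuttle, by which long-chain acyl groups enter the mitochondrion, passed the test. Cpt1a, the outer membrane transferase and the controlling step of entry, had 98.4, 100.3 and 122 FPKM in adenine 1 to 3, against 112, 129 and 122 FPKM in standard 1 to 3, and the groups overlapped. Cpt2, the inner membrane transferase, was 71.8 ± 18.7 FPKM in adenine samples and 82.4 ± 7.22 FPKM in standard samples, and Slc25a20, the carnitine-acylcarnitine carrier, 24.5 ± 2.34 FPKM in adenine samples and 28.7 ± 2.16 FPKM in standard samples. Their log2 changes were -0.18, -0.22 and -0.22 (limma adjusted p 0.132 to 0.356), and none was below 0.05 unadjusted. Slc25a20 fell after size-factor scaling (limma adjusted p = 0.0226), and with the replicate block added to that scaling all 3 fell.

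The acyl-CoA dehydrogenases open the spiral, each for a range of chain lengths. Acadm, the medium-chain enzyme, had the highest level of the 5 and the largest fall. It had 198, 263 and 382 FPKM in adenine 1 to 3, against 621, 563 and 638 FPKM in standard 1 to 3, and its mean was 46.3% of the standard mean (log2 change -1.16, SE 0.24, limma adjusted p = 0.015). Acadl, the long-chain enzyme, fell to 128 ± 24.6 FPKM in adenine samples, against 177 ± 8.31 FPKM in standard samples (limma adjusted p = 0.0442). Acadsb, which acts on short branched chains and on the isoleucine pathway, fell with the smallest standard error of the 5. It had 54.4, 59.3 and 60.2 FPKM in adenine 1 to 3, against 82.2, 77.5 and 77.8 FPKM in standard 1 to 3 (log2 change -0.44, SE 0.08, limma adjusted p = 0.0105). The very long-chain enzyme Acadvl and the short-chain enzyme Acads did not pass, at log2 changes of -0.33 and -0.35 (limma adjusted p = 0.101 and 0.132), although their groups did not overlap. Acadvl fell after size-factor scaling (limma adjusted p = 0.041). Acads had 68.8, 82.2 and 107.6 FPKM in adenine 1 to 3, against 107.9, 107.7 and 108.3 FPKM in standard 1 to 3, so adenine 3 lay just under the standard samples. The call of Acadm ended without adenine 2, standard 1 or standard 3 (limma adjusted p 0.051 to 0.0574). That of Acadl ended without each library except adenine 3 (0.0908 to 0.136), with no filter (0.0654), with quantile normalization (0.0935) and without a variance trend (0.0528).

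Acadm (chr3:153922357-153944632, GRCm38, minus strand) is the only one of the 39 members with a window to hold the single half-site AAGGTCA in it. Of all windows 4.72% have it on either strand. The 250 bases before its RefSeq start site are shown for that site (RefSeq, GRCm38.p6, chr3:153944644-153944893, minus strand, half-site in capitals).
Acadm: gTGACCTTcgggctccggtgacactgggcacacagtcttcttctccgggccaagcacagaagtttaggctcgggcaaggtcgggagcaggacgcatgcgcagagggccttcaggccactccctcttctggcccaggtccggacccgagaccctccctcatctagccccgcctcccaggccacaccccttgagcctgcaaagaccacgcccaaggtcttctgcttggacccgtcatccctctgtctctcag
The half-site lies on the opposite strand, 249 bases before the start site, at the edge of the window. The longer form TNAAGGTCA, which contains the half-site, was in none of the members' windows and in 1.28% of all windows.

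Of the 6 enzymes of the later steps of the spiral 4 fell. Hadha and Hadhb encode the alpha and beta subunits of the mitochondrial trifunctional protein, which carries out these steps on long chains. The pair lies head to head on chromosome 5, Hadha (chr5:30118301-30155162) on the minus strand and Hadhb (chr5:30155248-30184593) on the plus strand. The 85 bases between them in the table, which lie upstream of both, have a GC content of 69.4% and are shown because the pair moved unequally (RefSeq, GRCm38.p6, chr5:30155163-30155247, plus strand, no part marked).
Hadha-Hadhb: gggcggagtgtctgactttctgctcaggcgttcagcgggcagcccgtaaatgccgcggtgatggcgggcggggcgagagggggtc
Hadha had 80.0, 84.1 and 84.9 FPKM in adenine 1 to 3, against 81.3, 92.1 and 90.4 FPKM in standard 1 to 3. The groups overlapped, with a log2 change of -0.08 (SE 0.08, limma adjusted p = 0.468). Hadhb had 96.9, 108.9 and 109.2 FPKM in adenine 1 to 3, against 134, 142 and 166 FPKM in standard 1 to 3, with no overlap (log2 change -0.48, SE 0.11, limma adjusted p = 0.0199). The ratio of Hadhb to Hadha within a sample, which no scaling of libraries can move, was 1.26 ± 0.0461 in adenine samples and 1.68 ± 0.146 in standard samples (SD, n = 3 each), without overlap (two-sided exact permutation p = 0.1, the smallest that 3 against 3 samples can give). After size-factor scaling both subunits fell, by 0.38 and 0.78 on the log2 scale (limma adjusted p = 0.0429 and 0.0142).

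Hadh, the dehydrogenase for medium and short chains, fell to 151 ± 32.4 FPKM in adenine samples, against 258 ± 10.9 FPKM in standard samples, and the hydratase Echs1 fell to 107 ± 13.6 FPKM in adenine samples, against 145 ± 2.37 FPKM in standard samples (limma adjusted p = 0.0155 and 0.0249). Acat1 splits acetoacetyl-CoA in the last step of the spiral and in ketone and isoleucine breakdown. It had 91.7, 130.5 and 195 FPKM in adenine 1 to 3, against 308, 313 and 321 FPKM in standard 1 to 3 (log2 change -1.24, SE 0.26, limma adjusted p = 0.0151). The standard samples lay close together, the adenine samples were spread out, and the groups were far apart. Acaa2, the thiolase for longer chains, overlapped between the diets at 72.8 ± 3.77 FPKM in adenine samples and 77.2 ± 10.9 FPKM in standard samples (limma adjusted p = 0.633). Within samples the ratio of Acat1 to Acaa2 was 1.33, 1.79 and 2.55 in adenine 1 to 3, against 4.70, 3.99 and 3.68 in standard 1 to 3, without overlap (two-sided exact permutation p = 0.1, the smallest possible here). The calls of Hadhb, Hadh and Acat1 ended without adenine 2, standard 2 or standard 3 (limma adjusted p 0.0501 to 0.0637). That of Echs1 ended without adenine 2 or any standard sample (0.0702 to 0.0805) and with quantile normalization (0.0694).

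Auxiliary enzymes prepare unsaturated chains for the spiral. Decr1, the dienoyl-CoA reductase, had 53.4, 58.9 and 75.4 FPKM in adenine 1 to 3, against 88.0, 92.2 and 113 FPKM in standard 1 to 3. The groups did not overlap, and it fell (log2 change -0.64, SE 0.16, limma adjusted p = 0.0239). The call ended without adenine 1, adenine 2, standard 2 or standard 3 (limma adjusted p 0.058 to 0.0825). Eci1, the mitochondrial enoyl-CoA isomerase, overlapped at 47.8 ± 4.81 FPKM in adenine samples and 49.7 ± 2.29 FPKM in standard samples (limma adjusted p = 0.642).

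Both subunits of the electron transfer flavoprotein, which collects electrons from the acyl-CoA dehydrogenases, fell. Etfa had 154, 201 and 246 FPKM in adenine 1 to 3, against 354, 338 and 357 FPKM in standard 1 to 3 (log2 change -0.83, SE 0.18, limma adjusted p = 0.0163). Etfb had 139, 156 and 215 FPKM in adenine 1 to 3, against 286, 283 and 332 FPKM in standard 1 to 3 (log2 change -0.84, SE 0.18, limma adjusted p = 0.0161). For both subunits the highest adenine sample, adenine 3, remained below each standard sample. The ratio of Etfb to Etfa was 0.851 ± 0.0683 in adenine samples and 0.858 ± 0.0639 in standard samples (SD, n = 3 each, two-sided exact permutation p = 1.0). Etfdh, the membrane enzyme that passes the electrons to ubiquinone, was 71.4 ± 9.74 FPKM in adenine samples and 94.8 ± 11.0 FPKM in standard samples. It missed the threshold (log2 change -0.41, limma adjusted p = 0.0545) and passed with the replicate block (0.0221) and after size-factor scaling (0.0289). The call of Etfa ended without adenine 2 or any standard sample (limma adjusted p 0.051 to 0.0575), and that of Etfb without adenine 2 or standard 3 (0.0571 to 0.0633).

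**Figure D2:**
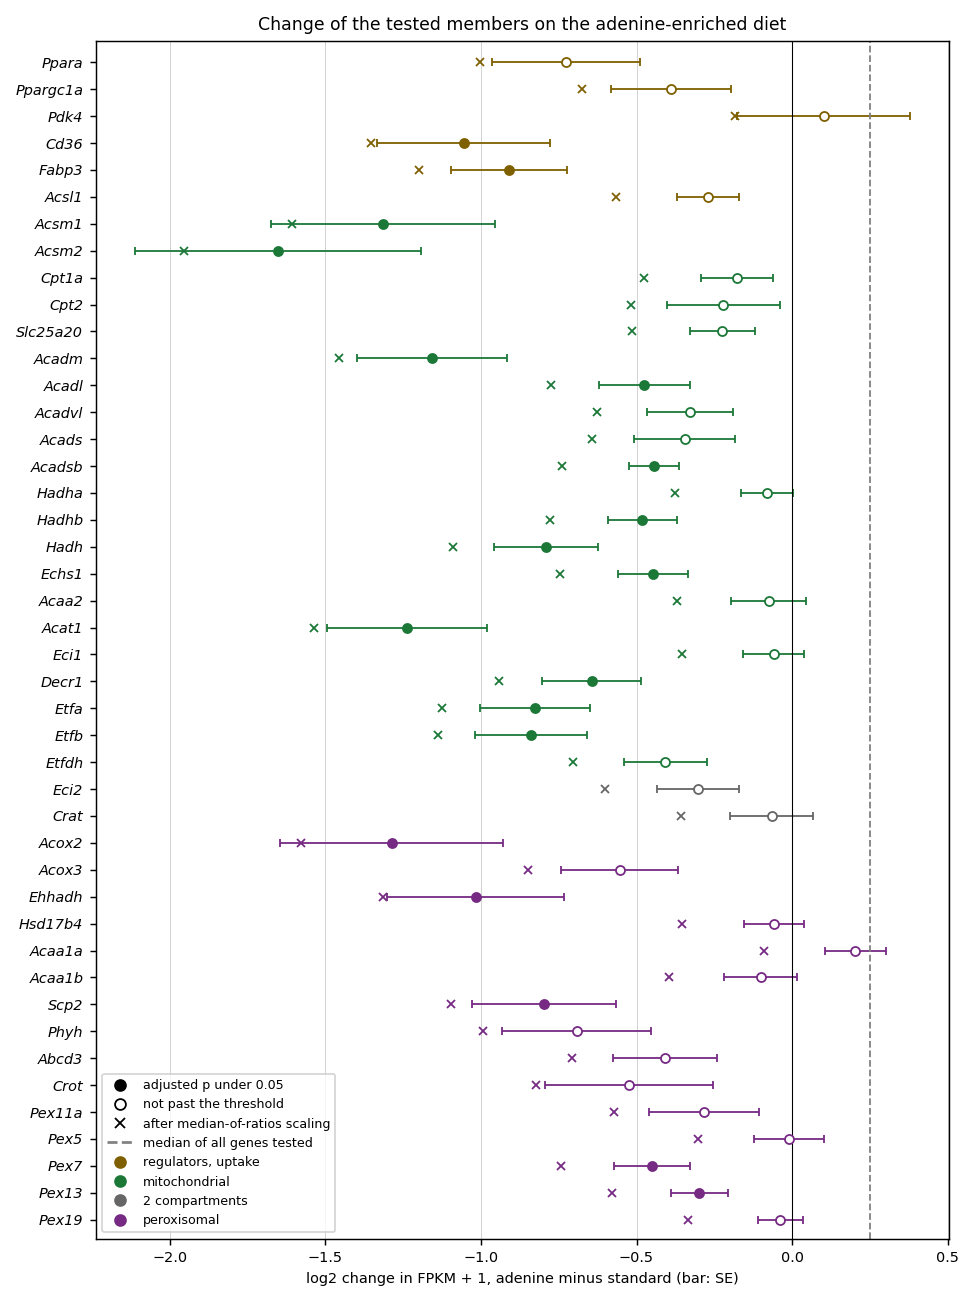
Log2 change (adenine minus standard, x axis) of each tested member with its standard error, by class; filled points passed the test, crosses give the change with median-of-ratios size factors and the dashed line is the median of all genes tested, 0.25. Acsm2 stands lowest at -1.65 and Acaa1a highest at 0.20; every cross lies below 0.

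Eci2 and Crat, an enoyl-CoA isomerase and the carnitine acetyltransferase found in both organelles, did not pass. Eci2 was 72.7 ± 12.6 FPKM in adenine samples and 89.1 ± 4.53 FPKM in standard samples, and Crat 41.7 ± 7.56 FPKM in adenine samples and 43.3 ± 1.73 FPKM in standard samples (limma adjusted p = 0.112 and 0.711). Both overlapped between the diets. Eci2 fell after size-factor scaling (limma adjusted p = 0.0386).

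Of the 8 peroxisomal oxidation enzymes 3 fell. Acox2, the oxidase for branched chains and bile acid intermediates, had 16.8, 27.3 and 51.3 FPKM in adenine 1 to 3, against 74.0, 69.3 and 71.7 FPKM in standard 1 to 3. Its standard samples were nearly alike, while adenine 3 stood well above adenine 1 and still below them (log2 change -1.29, SE 0.36, limma adjusted p = 0.0337). Ehhadh, the bifunctional enzyme induced by PPAR-alpha in liver, had 110.4, 169 and 225 FPKM in adenine 1 to 3, against 275, 308 and 416 FPKM in standard 1 to 3 (log2 change -1.02, SE 0.28, limma adjusted p = 0.0339). Scp2, which encodes a sterol carrier protein and a thiolase for branched chains, had 378, 456 and 660.2 FPKM in adenine 1 to 3, against 781, 810.0 and 944 FPKM in standard 1 to 3 (log2 change -0.80, SE 0.23, limma adjusted p = 0.0382). In all 3 genes adenine 1 was lowest and adenine 3 highest of its diet, without overlap with the standard samples. The 3 calls ended without adenine 2 or any standard sample, those of Ehhadh and Scp2 also without adenine 1 (limma adjusted p 0.0568 to 0.124), and with no filter (0.0577 to 0.0718). With quantile normalization Ehhadh (0.0576) and Scp2 (0.132) were not called.

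The other 5 did not pass. Acox3, a further branched-chain oxidase, had 51.0, 63.0 and 79.2 FPKM in adenine 1 to 3, against 93.8, 109.7 and 79.5 FPKM in standard 1 to 3 (log2 change -0.55, limma adjusted p = 0.0586), with adenine 3 and standard 3 nearly level. Phyh, which starts the breakdown of phytanic acid, was 248 ± 81.5 FPKM in adenine samples and 388 ± 28.0 FPKM in standard samples, without overlap (limma adjusted p = 0.0611). Both fell after size-factor scaling (limma adjusted p = 0.0268 for Acox3 and 0.0395 for Phyh). Hsd17b4, the other bifunctional enzyme of the peroxisome, overlapped at 94.3 ± 8.68 FPKM in adenine samples and 98.0 ± 3.91 FPKM in standard samples (limma adjusted p = 0.644). The ratio of Ehhadh to Hsd17b4 was 1.29, 1.78 and 2.19 in adenine 1 to 3, against 2.92, 3.02 and 4.24 in standard 1 to 3, without overlap (two-sided exact permutation p = 0.1, the smallest possible here).

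Acaa1a and Acaa1b, the peroxisomal thiolases, are near-identical genes 183 kb apart on chromosome 9, so reads may be shared and their split is uncertain. Acaa1a had 48.2, 49.3 and 49.3 FPKM in adenine 1 to 3, against 41.0, 47.8 and 38.8 FPKM in standard 1 to 3. It was the only member with every adenine sample above every standard sample, but it did not pass (log2 change 0.20, SE 0.10, limma adjusted p = 0.139), and its change was -0.09 after size-factor scaling. Acaa1b overlapped, at 64.3 ± 5.94 FPKM in adenine samples and 69.2 ± 8.11 FPKM in standard samples (limma adjusted p = 0.508).

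Neither transport gene passed. Abcd3, a peroxisomal membrane transporter of fatty acyl-CoA, was 126 ± 27.6 FPKM in adenine samples and 165 ± 9.23 FPKM in standard samples (log2 change -0.41, limma adjusted p = 0.0951). Crot, the carnitine octanoyltransferase that exports shortened chains, had 146, 190.4 and 310 FPKM in adenine 1 to 3, against 333, 287 and 269 FPKM in standard 1 to 3. Adenine 3 exceeded standard 2 and standard 3 (limma adjusted p = 0.166). Abcd3 fell after size-factor scaling (limma adjusted p = 0.045).

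Peroxins build the organelle and import its proteins. Pex7, the receptor for the second type of import signal, had 24.2, 25.9 and 32.2 FPKM in adenine 1 to 3, against 35.5, 39.9 and 37.5 FPKM in standard 1 to 3, and fell (log2 change -0.45, SE 0.12, limma adjusted p = 0.0315). Pex13, part of the docking complex in the membrane, had 12.8, 13.2 and 13.5 FPKM in adenine 1 to 3, against 15.5, 17.9 and 15.9 FPKM in standard 1 to 3, and fell (log2 change -0.30, SE 0.09, limma adjusted p = 0.0454). Neither gene overlapped between the diets. Pex5, the receptor for the more common import signal, overlapped at 33.7 ± 3.49 FPKM in adenine samples and 33.9 ± 3.21 FPKM in standard samples, and Pex19, which chaperones membrane proteins, at 63.2 ± 0.707 FPKM in adenine samples and 64.9 ± 2.47 FPKM in standard samples (limma adjusted p = 0.951 and 0.694). Pex11a, which promotes peroxisome division, was 26.4 ± 6.04 FPKM in adenine samples and 32.1 ± 4.47 FPKM in standard samples (limma adjusted p = 0.241). After size-factor scaling Pex19 also fell, by 0.33 on the log2 scale (limma adjusted p = 0.0377). The ratio of Pex7 to Pex5 was 0.812 ± 0.0748 in adenine samples and 1.11 ± 0.0957 in standard samples (SD, n = 3 each, two-sided exact permutation p = 0.1, the smallest possible here). Both calls ended without each sample except adenine 3 (limma adjusted p 0.0653 to 0.139). That of Pex13 also ended with the replicate block (0.0596), with no filter (0.0501) and without a variance trend (0.0571).

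**Figure D3:**
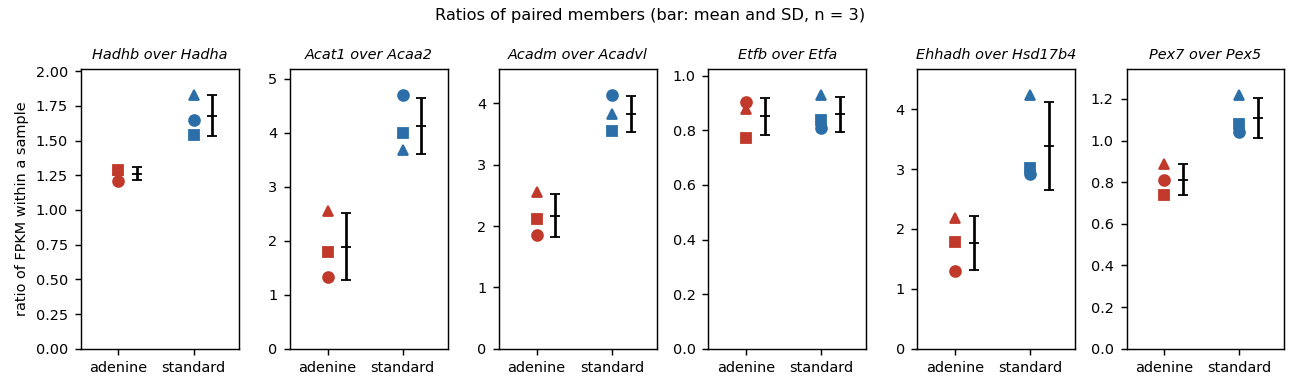
Ratios of FPKM between pairs of genes within each sample, adenine samples in red left of standard samples in blue, with the mean and SD of each diet as a bar. Hadhb over Hadha lies at 1.21 to 1.29 in adenine samples and 1.54 to 1.83 in standard samples, whereas Etfb over Etfa overlaps.

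The pairs were chosen after their values were seen. Among the other ratios, Acadm to Acadvl was 2.17 ± 0.351 in adenine samples and 3.83 ± 0.297 in standard samples, and Etfa to Etfdh 2.78 ± 0.267 in adenine samples and 3.72 ± 0.405 in standard samples. Neither overlapped. Acaa1b to Acaa1a overlapped, at 1.31 ± 0.111 in adenine samples and 1.64 ± 0.312 in standard samples.

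These class counts are to be read against the 6.84% of all genes tested that fell. Of 21 mitochondrial members 12 fell (57.1%), with a median log2 change of -0.45. Of 15 peroxisomal members 5 fell (33.3%), with a median of -0.41. The difference of the medians was -0.04, smaller than its SD over the adenine samples, 0.128. It was 0.09 when the 5 peroxins were left out, with 3 of 10 fallen and a median of -0.54. With Eci2 and Crat counted as peroxisomal, 5 of 17 fell (29.4%), with a median of -0.304. That median lay above the mitochondrial one by more than the SD of 0.128. After size-factor scaling 16 of 21 mitochondrial and 9 of 15 peroxisomal members fell, against 15.2% of all genes tested. With quantile normalization 10 of 21 and 3 of 15 fell, against 2237 of the 15431 genes tested.

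The adenine samples differed among themselves in the same order for most of these genes, not for all. Among the 44 tested members adenine 1 was lowest of its diet in 38, and adenine 3 was highest in 39. In all 19 members that fell, adenine 1 was the lowest and adenine 3 the highest of its diet. Of all 1056 genes that fell 69.4% had that order, and of all genes tested 17.3%. Of the 44 tested members 40 were lower in adenine 1 than in every standard sample, 36 in adenine 2 and 29 in adenine 3. For single samples the share of all genes tested was not counted, so these counts describe the members only. The median difference of the members from the standard mean was -0.63, -0.42 and -0.21 on the log2 scale in adenine 1 to 3, and -0.07 to 0.06 in the standard samples. 

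**Figure D4:**
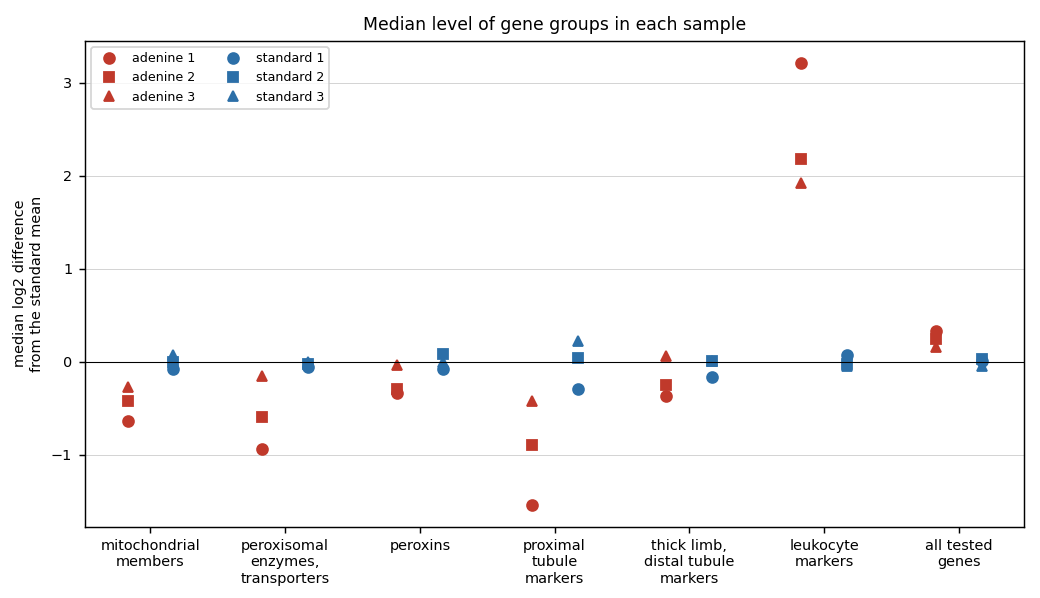
Median log2 difference from the standard mean (y axis) of the genes of each group (x axis) in each sample, adenine samples in red left of standard samples in blue. The median of the mitochondrial members is -0.64 in adenine 1 and -0.28 in adenine 3, and that of all tested genes is above 0 in each adenine sample.

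Counts of markers called are to be read against the 6.84% of all genes tested that fell and the 29.7% that rose. The proximal tubule sum given above was, like the members that fell, lowest in adenine 1 and highest in adenine 3 of the adenine samples. Of its 16 genes 9 fell. Leukocyte and fibroblast sums had the reverse order. The sum of 11 leukocyte markers was 1803, 944 and 767 FPKM in adenine 1 to 3, against 133, 121 and 107 FPKM in standard 1 to 3, with 9 of 11 risen. The sum of 7 fibroblast markers was 1290.0, 1076 and 694 FPKM in adenine 1 to 3, against 169, 143 and 131 FPKM in standard 1 to 3, with 7 of 7 risen. No gene of these 3 lists was at 0 in every sample. Of the 9 markers of the thick ascending limb and distal tubule 2 rose and 2 fell (22.2% each), with a median log2 change of -0.24. The share that rose was below that of all genes tested. The 9 summed to 3641, 4349 and 4532 FPKM in adenine 1 to 3 and 3702, 3918 and 3738 FPKM in standard 1 to 3. Most of that sum was Umod, the gene of uromodulin, with 2888, 3505 and 3486 FPKM in adenine 1 to 3, against 2393, 2636 and 2489 FPKM in standard 1 to 3. The other 8 summed to 753, 844 and 1046 FPKM in adenine 1 to 3, against 1310.0, 1282 and 1249 FPKM in standard 1 to 3, so each adenine sample lay below each standard sample. Slc12a1, the largest of these 8, had 358, 403.5 and 502.5 FPKM in adenine 1 to 3. In standard 1 to 3 it had 769.5, 677 and 621 FPKM. Slc12a1 and Cldn10 were the 2 that fell, and Cldn16 and Trpm6 the 2 that rose, so the sum does not stand for each gene. The 7 collecting duct markers summed to 207, 214 and 230.1 FPKM in adenine 1 to 3, against 343, 347 and 216 FPKM in standard 1 to 3, with 2 fallen and none risen. The endothelial and adipocyte sums given above followed neither order. The part of cell composition in the falls of the members was not tested.

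Other genes of the pathways were counted from 5 lists, to be read against the 6.84% of all genes tested that fell and the 29.7% that rose, or 15.2% and 16.8% with size-factor scaling. Of 25 tested mitochondrial enzymes of fatty acid, ketone and branched-chain breakdown 9 fell (36.0%) and 1 rose; with size-factor scaling 11 fell and 1 rose. Acot13, a thioesterase, fell to 70.7 ± 19.4 FPKM in adenine samples, against 143 ± 7.03 FPKM in standard samples (limma adjusted p = 0.0104). Cpt1b, the muscle form of the outer transferase, fell to 11.8 ± 2.83 FPKM, against 20.7 ± 1.67 FPKM in standard samples, and Pccb, a subunit of propionyl-CoA carboxylase, to 152 ± 18.3 FPKM, against 260 ± 44.7 FPKM in standard samples (limma adjusted p = 0.0166 and 0.0162). Cpt1c, the brain form, rose to 3.004 ± 0.779 FPKM in adenine samples, against 0.689 ± 0.0916 FPKM in standard samples (limma adjusted p = 0.0067).

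Of 21 tested genes of uptake, activation and storage 6 rose (28.6%) and 2 fell (9.52%), shares near those of all genes tested. Plin3, a lipid droplet coat protein, rose to 33.1 ± 4.52 FPKM in adenine samples, against 18.1 ± 2.14 FPKM in standard samples (limma adjusted p = 0.00809). The synthetases Acsl5 and Acsl4 rose by 0.69 each on the log2 scale (limma adjusted p = 0.0124 and 0.0303), and the call of Acsl4 was lost after size-factor scaling (0.0917). Lpl, lipoprotein lipase, fell to 139 ± 59.1 FPKM in adenine samples, against 296 ± 42.3 FPKM in standard samples (limma adjusted p = 0.0361). Slc22a5, the carnitine transporter, fell to 43.8 ± 8.82 FPKM, against 72.3 ± 17.5 FPKM in standard samples (limma adjusted p = 0.0424). After that scaling 3 of the 21 rose and 4 fell, again near the shares of all genes.

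Among 34 other peroxisomal enzymes and transporters 9 fell (26.5%) and 2 rose (5.88%); with size-factor scaling 17 fell and 1 rose. Prdx5, a peroxiredoxin also found in mitochondria, fell to 402 ± 101.5 FPKM in adenine samples, against 971 ± 52.8 FPKM in standard samples (log2 change -1.30, limma adjusted p = 0.00762). Pecr, an enoyl-CoA reductase, and Pxmp2, a membrane channel, fell by 1.23 and 1.00 on the log2 scale (limma adjusted p = 0.0385 and 0.0224). Paox, a polyamine oxidase, rose by 0.67 on the log2 scale (limma adjusted p = 0.0335), a call lost after scaling (0.0777).

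Of 14 other peroxins and division factors 2 rose, Pex26 and Pex6, by 0.43 and 0.34 on the log2 scale, and 1 fell, Fis1, by 0.31 (limma adjusted p = 0.0391, 0.0234 and 0.0332). The share that fell, 7.14%, was near that of all genes, and the share that rose, 14.3%, was below it. Both rises were lost after size-factor scaling, where 6 fell and none rose. Of 20 nuclear receptors, coactivators and further PPAR-alpha targets 4 fell and 2 rose, and with that scaling 10 fell and 1 rose. Angptl4, a secreted inhibitor of lipoprotein lipase, rose to 33.3 ± 11.0 FPKM in adenine samples, against 14.0 ± 3.05 FPKM in standard samples (limma adjusted p = 0.0185). Rxrb, a partner receptor of PPAR-alpha, rose by 0.35 on the log2 scale (limma adjusted p = 0.0278), a call lost after scaling (0.682). The mitochondrial deacetylase Sirt3, the pantetheinase Vnn1 and the kinase subunit Prkaa2 fell by 0.64, 0.61 and 0.49 on the log2 scale (limma adjusted p = 0.0188, 0.0306 and 0.0475). Of the genes named from these lists, the calls of Cpt1c, Acot13, Plin3, Acsl5 and Prdx5 held under each of the 6 omissions; those of the others ended under at least 2.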

How the data were processed

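Whole-kidney RNA of 3 adenine samples and 3 standard samples was sequenced as paired-end reads, per the labels' protocols. The authors deposited a table of FPKM values; per the submitters' processing notes, the tools were Cufflinks 2.1.1, TopHat (version not given in the sources used here) and bcl2fastq 2.0, with builds mm10 and GRCm38. Another table's 6 value columns belong to no sample used here. Library depth was read off the spacing of low FPKM values (nominal fragment 200 bp). At 1 to 3 steps, 65.4% to 73.4% of values lay within 0.15 of a whole fragment, and 46.7% to 54.2% of all low values, so no count test was run. Each depth was the one that best fitted whole fragments at 1 to 3 steps. The share at those steps is therefore no separate check, and the depths are rough.

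Diets were compared with limma 3.58.1 in R 4.3.3 (two-sided, with a variance trend). Values entered as log2(FPKM + 1), and the 15431 genes averaging 0.5 FPKM or more were tested. P-values were Benjamini-Hochberg adjusted over all of them, at a threshold of 0.05. This scale understates changes of low genes. The code was tested on simulated data. Tables and plots used Python 3.11.15, pandas 2.3.3 and matplotlib 3.10.9. Members and lists were chosen with earlier results of these data known. Every member is named; from each other list, up to 3 rises and 3 falls with the largest log2 change among those called are named. A gene that this rule selects is not reported here. Alternatives were the pseudocount, filter, scaling, variance prior, threshold, replicate block and omission of each sample. The labels number the samples 1 to 3 in both diets. Departures of the samples from their diet's mean correlated at 0.257, 0.143 and 0.181 for equal numbers and at -0.187 to 0.038 for others. On this ground alone the number was fitted as a block, and only as an alternative. No label states a pairing, and tests for which no block is named left the samples unpaired. The block was read from the same values it was fitted to, so its counts are no separate check. Promoter windows came from RefSeq (GRCm38.p6).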

Additional observations from a re-analysis of the deposited data

How the results depend on the processing

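No member's log2 change turned its direction in a called value. The count of fallen members was 11 with no filter, 30 after size-factor scaling, 39 with the replicate block and that scaling together, and 0 at an adjusted p under 0.01 (19 as reported, 26 at an unadjusted p under 0.05). With quantile normalization 15 members fell. Omitting 1 sample gave 1 to 29. With size-factor scaling as well, an alternative chosen after seeing the data, it gave 19, 3 and 40 without adenine 1, 2 and 3 and 13, 10 and 5 without standard 1, 2 and 3. The replicate block alone gave 20; it added Ppara and Etfdh, ended the call of Pex13 and changed no other member's call. Over all genes, 4581 rose and 1056 fell as reported; 2598 rose and 2344 fell with size-factor scaling, 2140 and 2237 with quantile normalization, 2673 and 2589 with the block and size-factor scaling, and 1324 and 154 at an adjusted p under 0.01. Omitting 1 sample gave 1888 to 5452 rises and 231 to 1594 falls. The median of the members was -0.72 after size-factor scaling, with and without the block. The mitochondrial minus peroxisomal median was 0.0919 without the peroxins, against -0.0371. With Eci2 and Crat counted as peroxisomal, the peroxisomal median was -0.304, further from the mitochondrial one. Other pseudocounts, a filter at 5 FPKM, rescaling without the 50 most abundant genes and the variance prior kept the member count within 1.5 times. The cause of these differences was not tested. With 3 samples a diet, exact tests cannot go below p = 0.1.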
